A study of Mus musculus with 90 samples.

Results

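The cytosolic ribosomal protein genes were followed through 90 mouse melanoma allografts measured on Affymetrix expression arrays. Members were taken by annotation symbol: Rpl or Rps followed by a digit, Rplp0, Rplp1, Rplp2 or Rpsa, without pseudogene symbols and without the kinases whose symbols begin Rps6ka or Rps6kb. This gave 52 of the 18193 genes of the table, each read from its brightest probe set by mean over the arrays. They are 20 proteins of the large subunit, 2 of the ribosomal stalk and 21 of the small subunit, together 43 structural genes, plus 6 paralogues (Rpl22l1, Rpl39l, Rpl3l, Rpl7l1, Rps27l, Rps4l). The rule also took in 3 genes that encode no ribosomal protein, Rps19bp1, Rps6kc1 and Rps6kl1, which are counted among the 52 and described apart. Another 31 symbols of the rule, among them Rpl3, Rpl5, Rpl36a, Rplp1 and Rps12, were found on probe sets annotated with several symbols and were not analysed here.

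The tumours were grown under the skin. The labels give every sample the genotype Hgf transgene with homozygous Cdk4 R24C and the strain B6.cBrd, so the same transgene and allele are shared by the controls. Antibody against mouse PD-L1 (mIgG1 with the D265A change, 10 mg/kg) had been given to 5 groups, which the submitters defined by tumour volume. Responder tumours (27) had lost at least 5% of their volume and were taken after 2 to 12 doses. Relapse tumours (6) had shrunk below measurement and grown back after 4 to 10 doses. Stabilization tumours (3) came from the Responder arm and held their volume between 2 measurements in a row, and Growth Delay tumours (2) appeared only once treatment had been given. Non-responder tumours (23) kept growing and were taken at times matched to the Responders. Normal IgG at 10 mg/kg had been given to 22 tumours and PBS at 10 ml/kg to 7. All are allografts of 1 engineered melanoma model. The labels do not say that each array is a separate mouse, so p-values measure the spread between these samples, which may be technical.

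Cytosolic ribosomes join a small subunit, which reads the messenger RNA, to a large subunit, which forms the peptide bond. Their proteins are made in matched amounts, and most of their mRNAs begin with a run of pyrimidines, the terminal oligopyrimidine (TOP) tract. Through this tract, translation of these mRNAs is held back when mTORC1 signalling is low, which acts on translation and need not change the mRNA level measured by an array. Growing tumour cells are known for high ribosome production, and activated T cells also build ribosomes. A few ribosomal proteins have paralogues that can stand in for them in particular tissues.

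The tract was looked for in RefSeq promoter windows (GRCm38.p6), which were at hand for 46 of the 52 members and 38 of the 43 structural genes. A tract was defined as C at the annotated start followed by at least 4 further C or T, giving a shortest length of 5 bases. It was present in 8 of 38 structural genes (21.1%), against 813 of 27025 genes with a window (3.01%). Windows of 40 bases are shown for these 8 genes, with 20 bases before the annotated start and the tract in capitals, because the tract is the hallmark of the family at the 5′ end. They are followed by 4 members with no tract at the annotated start, namely Rps25 and Rpl12, which were called lower in Responders than in Non-responders, and Rpl4 and Rps2, which were not called. All are printed 5′ to 3′ on the strand of the gene.
Rpl14 (chr9:120571497-120571536, plus strand): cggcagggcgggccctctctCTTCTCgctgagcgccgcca
Rps27 (chr3:90213629-90213668, minus strand): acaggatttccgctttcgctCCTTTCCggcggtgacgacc
Rps6 (chr4:86857348-86857387, minus strand): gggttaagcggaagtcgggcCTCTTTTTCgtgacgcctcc
Rpl35 (chr2:39005112-39005151, minus strand): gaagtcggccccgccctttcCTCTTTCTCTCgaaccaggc
Rps10 (chr17:27635225-27635264, minus strand): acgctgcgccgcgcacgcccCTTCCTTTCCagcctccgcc
Rps18 (chr17:33955646-33955685, minus strand): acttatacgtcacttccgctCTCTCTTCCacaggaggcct
Rpl38 (chr11:114668560-114668599, plus strand): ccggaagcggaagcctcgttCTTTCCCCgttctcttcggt
Rplp2 (chr7:141447631-141447670, plus strand): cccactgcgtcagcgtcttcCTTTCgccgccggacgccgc
Rps25 (chr9:44407694-44407733, plus strand): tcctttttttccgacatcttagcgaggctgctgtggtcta
Rpl12 (chr2:32961692-32961731, plus strand): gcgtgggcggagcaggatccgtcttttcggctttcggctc
Rpl4 (chr9:64173367-64173406, plus strand): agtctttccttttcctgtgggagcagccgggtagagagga
Rps2 (chr17:24720043-24720082, plus strand): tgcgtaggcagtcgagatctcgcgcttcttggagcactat

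The longest tract, of 11 bases, belonged to Rpl35. A tract was present in 6 of 24 structural genes called lower in Responders and in 2 of 14 not called, with no test of the difference. Annotated starts can lie some bases away from those that cells use. The windows of Rps25 and Rpl4 hold pyrimidine runs shortly before the annotated start, and those of Rpl12 and Rps2 hold runs shortly after it. The share counts none of these runs. Over the whole 300 bases, from 250 before to 50 after the start, CCGGAAG was found on either strand in 19 of the 38 structural genes and in 9.93% of all genes. TCTCGCGAG, nearly the same on both strands so that its matches overlap, was found in 6 of 38 (15.8%) and in 0.762% of all genes, and TATAAA in 5 of 38 (13.2%) and in 15.7%. These are counts of letters and not of bound factors.

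Probe sets of the members covered most of the scale. The 34 brightest structural genes had means over the 90 arrays between 13.06 and 14.19 on the log2 RMA scale, where single values of the table ran as high as 14.84, and their SDs over arrays lay between 0.0581 and 0.259. The other 9 (Rpl12, Rpl14, Rpl27a, Rpl37, Rpl39, Rps6, Rps16, Rps25 and Rps27) had means between 3.36 and 11.05 and SDs between 0.115 and 0.895. The split was made at 12, after the values had been seen. Values of different probe sets are not levels that can be set against each other, and 15 of the 52 probe sets carry a name ending that marks possible matches to other transcripts. Rps16 is a constitutive small-subunit protein, yet its probe set averaged 3.36, close to the lowest value of the table (2.19). What that probe set detects was not tested. The least variable members were Rps29, Rpl7a and Rplp2 (SD 0.0581, 0.0601 and 0.0659), and the most variable were Rpl39l, Rpl27a and Rpl3l (SD 0.966, 0.895 and 0.894).

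The mean of the 43 structural genes had group medians between 12.48 and 12.72 on the log2 scale. In Responder tumours its lowest, median and highest values were 12.05, 12.51 and 12.77, and in Relapse tumours 12.39, 12.53 and 12.58. The 3 Stabilization tumours had 12.32, 12.48 and 12.72, and the 2 Growth Delay tumours 12.54 and 12.48. In Non-responder tumours the lowest, median and highest were 12.45, 12.67 and 12.85, in Normal IgG tumours 12.37, 12.69 and 12.85, and in PBS tumours 12.62, 12.72 and 12.85. Responder and Non-responder ranges overlapped, and the medians of the 4 other groups given the antibody against PD-L1 all lay below those of Non-responder, Normal IgG and PBS. The mean was 12.53 ± 0.145 in Responders (SD, n = 27) and 12.65 ± 0.124 in Non-responders (SD, n = 23), against a pooled SD within groups and title series of 0.111.

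**Figure D1:**
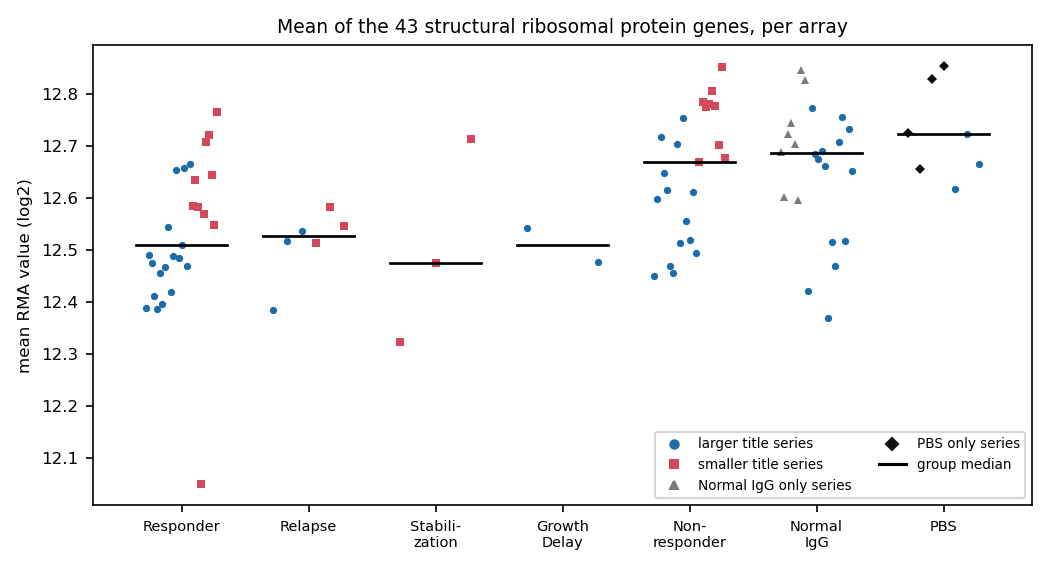
Mean log2 RMA value of the 43 structural ribosomal protein genes on each of the 90 arrays (vertical axis) by group (horizontal axis), with the group median as a bar and the title series as the symbol. Responder medians (12.51) lie below Non-responder (12.67), Normal IgG (12.69) and PBS (12.72) medians, the ranges overlap, and 1 Responder array lies at 12.05.

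The numbers used as sample titles form 4 separate blocks, named title series in this text, whose meaning the labels do not give. The larger series holds 53 arrays and the smaller 25, both with Responder, Relapse and Non-responder tumours, and the others hold 8 Normal IgG and 4 PBS arrays alone. Stabilization tumours lie only in the smaller series and Growth Delay tumours only in the larger. All differences below come from a limma model of group and title series, and a gene is called changed at an adjusted p under 0.05 over all 18193 genes. The melanocyte list (12 genes, such as Pmel, Tyr and Mlana) averaged between 6.64 and 10.08 on the arrays. Pmel averaged 10.82 in Responders and 11.74 in Non-responders, whereas Tyr averaged 3.56 in Responders and 3.61 in Non-responders, where the lowest value of the table was 2.19. Skeletal muscle markers averaged above 8 on 22 arrays and B cell markers on 2. On 7 arrays the mean correlation with the others was low (Responder 4, 20 and 21, Stabilization 1 and 2, Non-responder 14 and PBS 5), and PBS 5 also stood apart in its beta-actin 3′ minus 5′ control difference, which was 6.09 there.

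Responder against Non-responder tumours asks how the family stood in tumours that shrank under the same antibody. Many ribosomal protein mRNAs were slightly lower in Responders. Of the 52 members, 31 were called lower, 2 higher and 19 neither, in a comparison where 29.8% of all genes were called lower and 17.2% higher. The median member difference was -0.09 (log2) and that of all genes -0.06. Among the 43 structural genes 27 were lower and none higher, with a median change of -6.09%. By part of the ribosome, 14 of 20 large-subunit genes, 13 of 21 small-subunit genes and 0 of 2 stalk genes were lower. A tumour with fewer cells of a type and one with less RNA per cell cannot be told apart in bulk tissue.

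The same comparison gave 43 members called lower when each array was centred on its median, but centring also brought the calls over all genes to 50.2% lower and 11.3% higher. With the dimmer genes left out, 22% of the remaining genes were lower and 26.3% higher, against 27 members lower. Without the 24 arrays rich in muscle or B cell markers, 17 members were lower (16% of all genes), and 1 was higher (9.49%). With the larger series fitted alone 2 were lower and 0 higher (2.42% and 0.605% of all genes), and with the smaller alone 7 were lower and 1 higher (9.78% and 9.28%). Leaving out the 7 arrays of low correlation gave 28 lower members (29.7% of all genes lower and 17.8% higher). Without Responder 21, the array with the lowest mean, the count was 27, but no share over all genes is given here for that setting.

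Rpl14, a large-subunit protein with a tract of 6 pyrimidines at its start, showed the largest fall among the members called lower. In Responders its lowest, median and highest values were 6.41, 8.14 and 9.67, and in Non-responders 7.30, 8.91 and 10.19. The ranges overlapped widely, while the Responder median lay below that of Non-responders. The difference was -0.63 (SE 0.17, adjusted p = 0.00361), so that its signal fell by 35.4%. It had the same sign in both title series, -0.35 in the larger and -1.08 in the smaller.

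Rps25, a small-subunit protein known for its role in internal ribosome entry, followed. Its lowest, median and highest values were 9.56, 10.56 and 12.05 in Responders and 10.05, 11.28 and 12.30 in Non-responders, again with overlap. The difference was -0.54 (SE 0.17, adjusted p = 0.00771). Without the arrays rich in muscle or B cell markers it was -0.43 and no longer called (adjusted p = 0.0898).

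Rps6 is the small-subunit protein that S6 kinase phosphorylates downstream of mTORC1, and its window holds a tract of 9 pyrimidines. Its lowest, median and highest values were 9.06, 10.08 and 10.50 in Responders and 9.97, 10.36 and 10.80 in Non-responders. The ranges overlapped, with the Responder median between the lowest value and the median of Non-responders. The difference was -0.28 (SE 0.068, adjusted p = 0.00138), with -0.20 in the larger and -0.42 in the smaller series.

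Rps19, a small-subunit protein needed to mature the 18S rRNA and mutated in Diamond-Blackfan anaemia in humans, was the bright structural gene with the largest fall. It ran at 12.68, 13.34 and 13.82 (lowest, median, highest) in Responders and 13.27, 13.64 and 13.93 in Non-responders. The difference was -0.25 (SE 0.061, adjusted p = 0.00177), of like size in the larger (-0.21) and smaller (-0.31) series. Rps27, whose window carries a tract of 7 bases, fell by 0.30 in log2 units, with an SE of 0.085 (adjusted p = 0.00439).

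Rpl12, of the stalk base, fell by 0.40 (SE 0.14, adjusted p = 0.0198), and the dim Rps16 probe set by 0.25 (SE 0.061, adjusted p = 0.00147), but without the arrays rich in muscle or B cell markers neither was called (adjusted p = 0.159 and 0.0818), nor was Rps27 (0.0651). The remaining 20 structural genes called lower differed by between -0.07 and -0.17. They included Rpl35 at -0.17, Rpl22 at -0.08 (adjusted p = 0.0464) and Rpl39 at -0.10 (adjusted p = 0.00466). On the log2 scale these are small shifts, and a probe set close to the top of the scale may record less than the whole change.

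**Figure D2:**
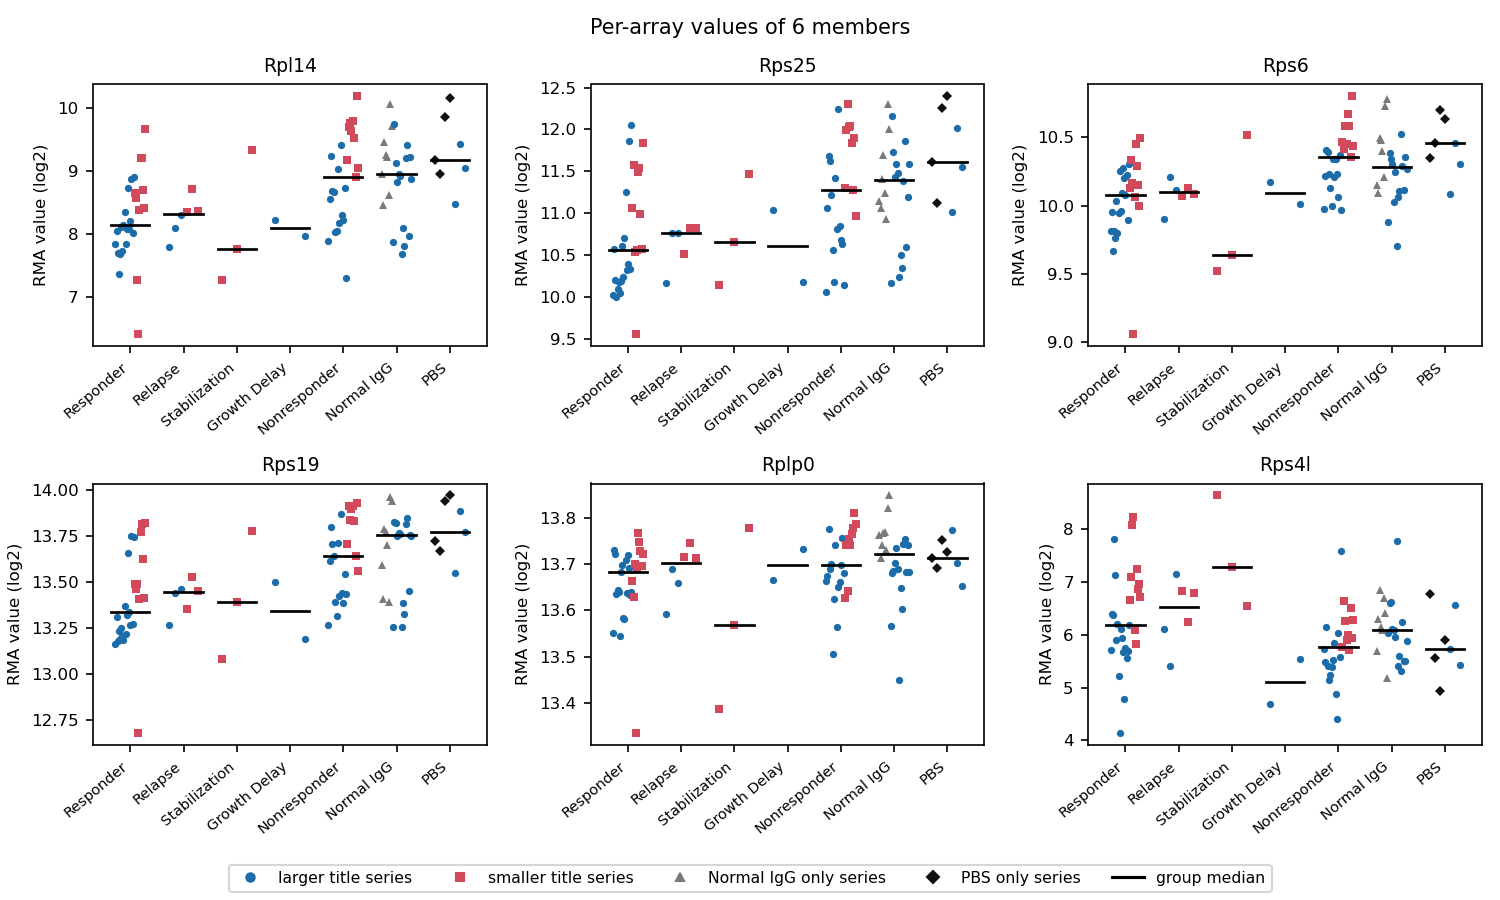
Log2 RMA values of 6 members on each array (vertical axis) by group (horizontal axis), with group medians as bars and the title series as the symbol. Rpl14, Rps25, Rps6 and Rps19 have lower medians in Responder than in Non-responder tumours (8.14 and 8.91 for Rpl14), Rplp0 hardly differs (13.68 and 13.70), and Rps4l is higher in Responders (6.19 and 5.77), with overlap in every panel.

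Stalk proteins recruit the elongation factors, and neither measured one was called. Rplp0 had lowest, median and highest values of 13.34, 13.68 and 13.77 in Responders and 13.51, 13.70 and 13.81 in Non-responders, which overlap almost fully. Its difference was -0.04 (adjusted p = 0.175), and that of Rplp2 was -0.01 (adjusted p = 0.622). After centring of the arrays Rplp0 was called lower, at -0.12 (adjusted p = 0.00175), with the other genes shifting down as well. Rpl13a, Rps4x, Rps29 and Rpl4 also missed the threshold, with differences of -0.05, -0.04, 0.02 and 0.05 on the probe sets that represent them. Other probe sets of Rpl13a, Rps4x and Rps29 gave other calls, whereas Rpl4 had only 1 probe set. The remaining 3 of Rpl13a were called lower (-0.14, -0.22 and -0.30, adjusted p = 0.011, 0.00889 and 0.0263), a dim one of Rps4x averaging 5.82 was called lower (-0.29, adjusted p = 0.000405), and a bright one of Rps29 averaging 13.54 was called higher (0.09, adjusted p = 0.0126).

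**Figure D3:**
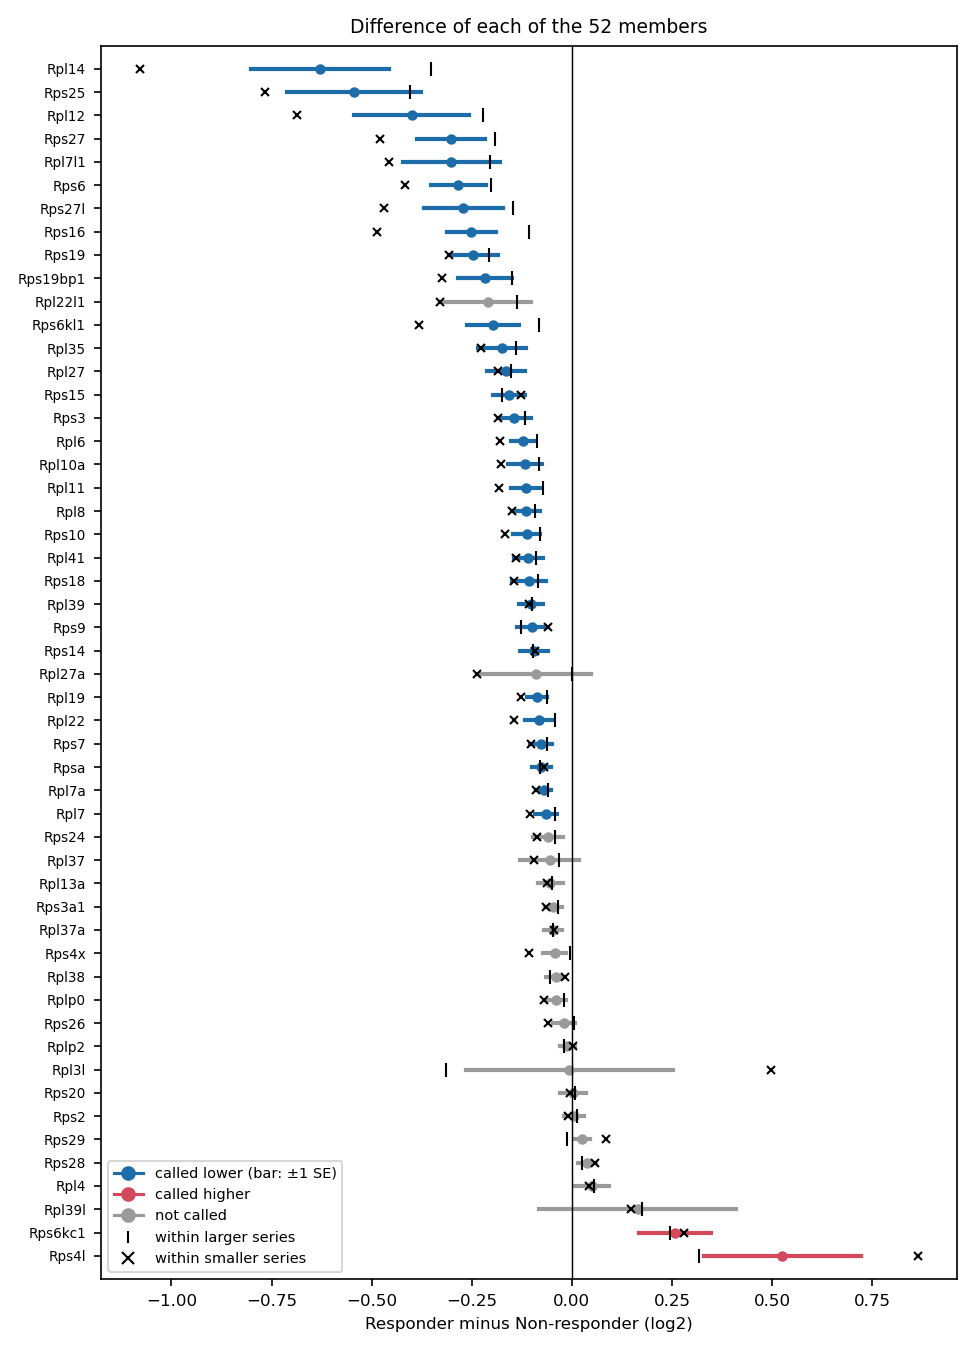
Responder minus Non-responder difference (horizontal axis, log2) of each of the 52 members (rows), with bars of ±1 SE coloured by call and marks for the difference within the larger and smaller title series. Calls lower run down to -0.63 for Rpl14, and the only members called higher are Rps6kc1 (0.26) and Rps4l (0.53).

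The median difference was larger among dim than among bright probe sets, though not for every gene. Of the 9 dim structural genes 7 were lower with a median of -0.28, and of the 34 bright ones 20 were lower with a median of -0.08. Over all genes 29.8% were lower. The dim Rpl39, Rpl27a and Rpl37 differed by only -0.10, -0.09 and -0.06. Since the bright probe sets also vary less between arrays, the sizes of the differences in the 2 classes cannot be compared as amounts of RNA.

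**Figure D4:**
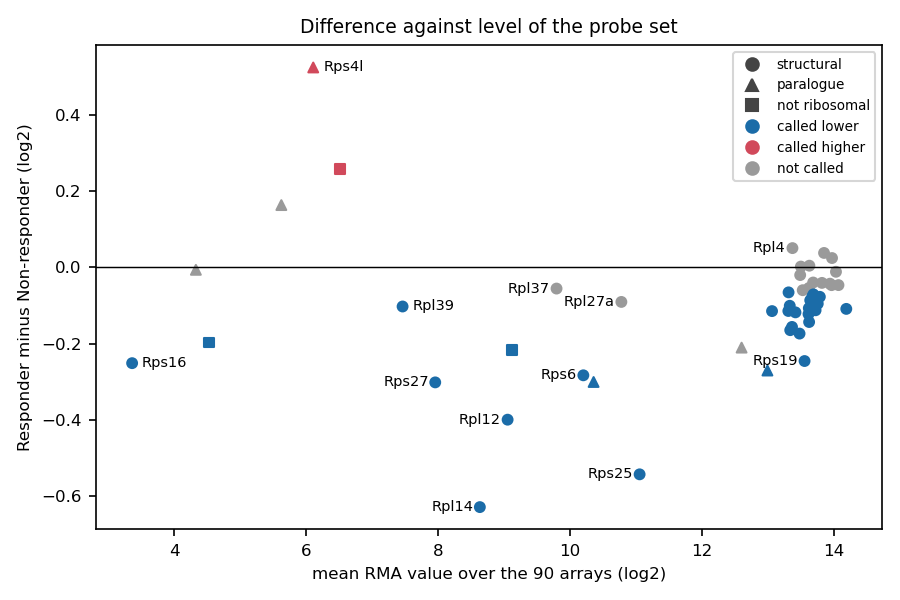
Responder minus Non-responder difference (vertical axis, log2) against the mean RMA value over the 90 arrays (horizontal axis, log2) for the 52 members, with the shape giving the kind of member and the colour the call. The 34 bright structural genes between 13.06 and 14.19 gather near 0, and the 9 dim ones reach down to -0.63.

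Paralogues did not move as one. Rps27l, a p53-induced relative of Rps27, fell by 0.27 (SE 0.099, adjusted p = 0.0218), and Rpl7l1, a relative of Rpl7 that takes part in ribosome assembly, by 0.30 (SE 0.12, adjusted p = 0.0352). Without the arrays rich in muscle or B cell markers both lost the call (adjusted p = 0.159 and 0.319), and Rpl7l1 also without Responder 21 (adjusted p = 0.0632). Rpl22l1, relative of the T cell regulator Rpl22, differed by -0.21 without passing (adjusted p = 0.0945). Rpl39l, known from the male germ line, and Rpl3l, the striated muscle form of Rpl3, did not pass (0.16 and -0.01, adjusted p = 0.586 and 0.986).

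Rps4l, a relative of the X-linked Rps4x, was the ribosomal gene called higher. Its lowest, median and highest values were 4.15, 6.19 and 8.23 in Responders and 4.41, 5.77 and 7.58 in Non-responders, with nearly full overlap. The difference was 0.53 (SE 0.20, adjusted p = 0.0238), or 43.9% higher, with 0.32 in the larger and 0.86 in the smaller series. Its correlation with Rps4x over the 90 arrays was -0.43 by Pearson and -0.09 by rank, and with the 2 farthest arrays left out Pearson's r was -0.22. By contrast, Rps27l followed Rps27 (r = 0.832) and Rpl22l1 followed Rpl22 (r = 0.861) over the 90 arrays, and Rpl39l did not follow Rpl39 (r = -0.09). Arrays of 1 group and series share its mean, so these correlations describe the arrays only.

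Rpl3l traced muscle in the samples. Its lowest, median and highest values were 3.44, 3.86 and 9.71 in Responders and 3.57, 4.24 and 5.66 in Non-responders, so that the top of the Responder range rested on few arrays. Responder 21, which held the value of 9.71, also had the highest mean of the 10 skeletal muscle markers (13.55) and the lowest structural mean (12.05). Over the 90 arrays Rpl3l correlated with the muscle list at r = 0.838 (rank correlation 0.705). In the Responder group r was 0.913, with a rank correlation of 0.603 and r = 0.861 without the 2 farthest arrays.

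Of the 3 non-ribosomal genes, Rps6kc1, which encodes a kinase-like protein with a PX domain, was higher in Responders by 0.26 (SE 0.090, adjusted p = 0.0164). It had 5.87, 6.81 and 7.22 (lowest, median, highest) in Responders and 5.71, 6.47 and 7.29 in Non-responders. After centring it was no longer called (0.18, adjusted p = 0.0596), nor without the arrays rich in muscle or B cell markers (0.19, adjusted p = 0.176). Rps19bp1 and Rps6kl1 were called lower, at -0.22 and -0.20.

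Of the members, Rpl27a, which encodes a large-subunit protein, differed most between the larger and smaller title series. It averaged 10.16 on the larger series, 11.62 on the smaller, 11.80 on the Normal IgG series and 11.69 on the PBS series. The smaller-minus-larger offset was 1.42 in Responders and 1.65 in Non-responders. Its Responder minus Non-responder difference was -0.09 and was not called. Rps6kc1 lay the other way, with offsets of -0.52 and -0.56.

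Most differences between Responders and Non-responders were larger in the smaller series, but the interaction with the title series passed for 0 of the 52 members and for 0 of all 18193 genes tested with limma. Unadjusted, 4 members and 2418 genes had p under 0.05. The smallest adjusted p was 0.32 for a member and 0.0586 for any gene, so a difference between the series was not shown.

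All probe sets of the members, not only the one that represents each gene, were also fitted. Of 108 probe sets 58 were called lower and 4 higher, where 25.4% of all probe sets with 1 symbol were lower and 15.1% higher. Differences were below 0 on 91 and above 0 on 17. Among 24 genes with several probe sets, 6 had both signs, and Rps18 was called in both directions, with -0.11 on the probe set that represents it and 0.12 on one averaging 3.60.

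Responder against Normal IgG tumours sets shrinking tumours beside tumours that received an antibody with another specificity. Of the 52 members 22 were called lower and 1 higher, where 22.8% of all genes were lower and 14.5% higher, and the median difference was -0.10 against -0.06 over all genes. All 22 were structural genes. Responder samples are shared with the previous comparison, and within the larger series alone 19 members were lower (19% of all genes). With each array centred on its median, 36 members were lower (34.2% of all genes). Beside these calls, 9 of 10 T cell, 7 of 12 macrophage and 1 of 11 fibroblast genes were higher and 5 of 12 melanocyte genes lower, and their part in the result was not tested.

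Rpl14 had lowest, median and highest values of 6.41, 8.14 and 9.67 in Responders and 7.69, 8.95 and 10.07 in Normal IgG tumours, with overlap. Its difference was -0.71 (SE 0.21, adjusted p = 0.00847), and -0.60 taken directly within the larger series, where both groups lie. Rps25 differed by -0.67 (adjusted p = 0.01), Rpl12 by -0.57 (adjusted p = 0.0106) and Rps19 by -0.31 (adjusted p = 0.00249). The 1 member higher was Rps6kc1 at 0.40 (adjusted p = 0.00567). Rps4l, higher against Non-responders, differed by -0.02 from Normal IgG and was not called (adjusted p = 0.955).

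Non-responder against Normal IgG tumours asks whether the antibody left a mark where tumours kept growing. No member was called in either direction, nor was any other gene (0% lower and 0% higher in limma). At an unadjusted p under 0.05 there were 2 members and 838 genes. The median member difference was -0.01, and 0.02 after centring. Rpl39l (-0.81, adjusted p = 0.99) and Rps4l (-0.54, adjusted p = 0.9996) were those 2 members. For Rpl14 the difference was -0.08 with an SE of 0.22.

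Relapse against Non-responder tumours compares tumours that had shrunk and regrown with tumours that never shrank. Of the 52 members 11 were called lower and 1 higher, where 11.9% of all genes were lower and 8.43% higher, with a median difference of -0.13 against -0.06. The calls were close to the threshold. There were 0 in the larger and 0 in the smaller series alone (0% and 1.58% of all genes lower, 0% and 1.4% higher), 1 with the title series left out (6.06% of all genes lower), 2 with the beta-actin control difference in the model (5.23%), 5 without the arrays rich in muscle or B cell markers (7.07%), 38 with centred arrays (36%), 23 without Responder 21 (14% of all genes), and 28 without the 7 arrays of low correlation (24.3% of all genes lower and 19.3% higher).

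Rps27 had 7.60, 7.80, 7.74, 7.69, 7.86 and 7.75 in the 6 Relapse tumours (the first 3 from the larger series) and 7.59, 7.97 and 8.97 (lowest, median, highest) in Non-responders. All Relapse values lay inside the Non-responder range and below its median. The difference was -0.37 (SE 0.14, adjusted p = 0.0473), with -0.18 in the larger and -0.59 in the smaller series. Rps6kl1 (-0.29, adjusted p = 0.0439), Rps16 (-0.28, adjusted p = 0.039) and Rpl35 (-0.28, adjusted p = 0.0403) were also called lower, and Rps6kc1 higher (0.44, adjusted p = 0.0326). In the smaller series the structural mean was 12.51, 12.58 and 12.55 in Relapse tumours and between 12.67 and 12.85 in the 9 Non-responders, without overlap, whereas in the larger series the ranges overlapped.

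Markers of other cell types also moved between Relapse and Non-responder tumours. Of the fibroblast genes 8 of 11 were higher in Relapse tumours, with a median difference of 1.54. Of the macrophage genes 4 of 12 and of the T cell genes 3 of 10 were higher, whereas 0 of 12 melanocyte genes were called. Over all genes 8.43% were higher and 11.9% lower. The fibroblast mean ran between 8.86 and 11.17 in Relapse and between 6.54 and 11.19 in Non-responder tumours, and the macrophage mean between 9.51 and 10.69 in Relapse and 8.25 and 11.64 in Non-responder tumours. For T cells it ran between 6.12 and 7.77 in Relapse and 5.21 and 9.58 in Non-responder tumours. Each Relapse range lay inside that of Non-responders, and the part of these cells in the result was not tested.

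Stabilization against Non-responder tumours rests on 3 arrays, of which replicates 1 and 2 had low correlations with the other arrays. Of the 52 members 14 were called lower and 1 higher, where 11.9% of all genes were lower and 10.5% higher. All 14 were structural genes, and the median member difference was -0.16 against -0.09 over all genes. Without replicate 1 the count of lower members was 0 (0.0055% of all genes), without replicate 2 it was 1 (1.84%), and without replicate 3 it was 30 (21%). It was 0 without the 7 arrays of low correlation (0%), 26 without Responder 21 (15.8%), 25 with centred arrays (19.7%) and 3 within the smaller series alone (5.42% of all genes lower and 8.21% higher).

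Rps6 had 9.52, 9.64 and 10.52 in the Stabilization tumours 1, 2 and 3, against 10.36, 10.47 and 10.80 (lowest, median, highest) in the 9 Non-responders of the same series. Tumours 1 and 2 lay below that range and tumour 3 within it. The difference was -0.55 (SE 0.15, adjusted p = 0.00959), but without the 7 arrays of low correlation it was 0.03 and not called. Rpl14 showed the same split, with 7.27, 7.76 and 9.34 against 8.91 to 10.19, and a difference of -1.15 (adjusted p = 0.0265). Rpl12 was at -0.95 (adjusted p = 0.0283), Rps27 at -0.55 (adjusted p = 0.0313) and Rplp0 at -0.15 (adjusted p = 0.0469). Rps6, Rpl14, Rpl12 and Rps27 each lost their call without replicate 1 (adjusted p between 0.458 and 0.505) and without replicate 2 (between 0.128 and 0.25).

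Rps4l had 8.64, 7.27 and 6.55 in Stabilization tumours 1, 2 and 3, against 5.72, 6.00 and 6.63 in the Non-responders of the same series. Only tumour 3 lay inside the Non-responder range. The difference was 1.22 (SE 0.44, adjusted p = 0.0357), or 2.34-fold. It was not called without the 7 arrays of low correlation (0.40), without replicate 1 (0.65, adjusted p = 0.565) or without replicate 2 (1.33, adjusted p = 0.103). Tumours 1 and 2 also had the higher muscle list means (7.28 and 11.47, and 4.91 in tumour 3), the higher macrophage means (12.20 and 11.72, and 10.15) and the lower melanocyte means (6.80 and 8.52, and 9.64). Over the 3 tumours 10 of 12 macrophage, 9 of 11 fibroblast and 4 of 10 T cell genes were called higher than in Non-responders, where 10.5% of all genes were higher. Of the melanocyte genes 6 of 12 and of the proliferation genes 8 of 11 were lower, where 11.9% of all genes were lower. Without the 7 arrays of low correlation 0 of 18193 genes were called lower, so none of these falls was called there. The part of these marker genes in the results was not tested.

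Growth Delay against Non-responder tumours rests on 2 arrays. No member and no other gene was called (0% in both directions), with 1 member, Rps28 at 0.12, and 567 genes at an unadjusted p under 0.05. Rpl14 had 8.23 and 7.97, inside the Non-responder range of the larger series (7.30 to 9.41). Normal IgG against PBS tumours, which sets the controls beside each other, had 0 members called in limma, 0 at an unadjusted p under 0.05, and a median of -0.04, where 0.0055% of all genes were lower and 0% higher and 240 genes passed unadjusted.

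Within groups the members moved together from array to array. After the mean of each group and title series was removed, the median correlation between pairs of structural genes over the 90 arrays was 0.479, and 776 of 903 pairs were above 0. Of the 43, 34 correlated with the mean of the structural genes above 0.5 and 16 above 0.8. The highest were Rpl10a and Rps19 (0.958 each), Rps3 (0.936) and Rps10 (0.933), and Rpl4, Rps2 and Rps29 were below 0 (-0.50, -0.38 and -0.36). The paralogues Rpl22l1 and Rps27l were at 0.914 and 0.913, Rps4l at -0.36 and Rps6kc1 at -0.72. Among the 18141 genes that are no members, 662 (3.65%) were above 0.8.

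The genes most like the structural mean by this measure over the 90 arrays were Snrpg (0.955), Btf3 (0.951), Snrpe (0.95), Eef1b2 (0.939), Igbp1 (0.938), Ssr4 (0.935), Pdcd2 (0.932), Snhg8 (0.929), Cenpk (0.928) and Nip7 (0.926). Snrpg and Snrpe encode small proteins of the spliceosome, Eef1b2 an elongation factor subunit, Btf3 a part of the nascent chain-associated complex and Nip7 a ribosome assembly factor. All 10 were called lower in Responders than in Non-responders, with differences between -0.12 (Eef1b2) and -0.71 (Cenpk), where 29.8% of all genes were lower. They were picked from these same arrays for likeness to the structural mean, so their calls are not independent of the result for the members.

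Other translation genes were mixed. Of 17 further genes of the TOP class 7 were lower and 4 higher in Responders than in Non-responders, where 29.8% of all genes were lower and 17.2% higher. Eif3h (-0.29, adjusted p = 0.000471) and Eif3e (-0.26, adjusted p = 0.00541), subunits of an initiation factor, and Naca (-0.16, adjusted p = 0.00659), which binds nascent chains, were lower, and Vim, encoding vimentin, was higher (0.24, adjusted p = 0.00156). Of 31 ribosome assembly genes 11 were lower (35.5%, against the same 29.8% of all genes) and 1 higher. Wdr12 (-0.41), Nip7 (-0.54) and Nop10 (-0.36) were lower, and the RNA polymerase I factor Ubtf was higher (0.27).

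Among 12 regulators of growth and translation, 3 were higher and 1 lower, where 17.2% of all genes were higher and 29.8% lower. Larp1, which binds TOP mRNAs, was higher by 0.42 (SE 0.12, adjusted p = 0.00451). Eif4ebp2, an inhibitor of the cap-binding protein, and Tsc2, an inhibitor of mTORC1, were higher by 0.23 and 0.27. Eif4e, the cap-binding protein, was lower, at -0.25 (adjusted p = 0.0494), with -0.074 in the larger and -0.525 in the smaller series. The other 8 were not called, among them Mtor and Rptor (0.13 each) and Eif4ebp1 (-0.09). Fau, which encodes a small-subunit protein under a symbol outside the rule, differed by -0.02 and was not called.

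Markers of several other cell types moved with the comparison. In Responders 9 of 10 T cell genes, 11 of 12 macrophage genes and 11 of 11 fibroblast genes were higher than in Non-responders, and 5 of 12 melanocyte and 6 of 11 proliferation genes lower. Of the B cell, adipocyte and muscle lists, 1 of 9, 1 of 6 and 0 of 10 genes were called higher and none lower. Over all genes 17.2% were higher and 29.8% lower. The B cell and adipocyte shares (11.1% and 16.7% higher) did not exceed that, and the melanocyte share (41.7% lower) was not far above it. The T cell mean ran between 5.49 and 9.60 in Responders and between 5.21 and 9.58 in Non-responders, with medians of 7.23 and 6.09. The macrophage mean ran between 8.37 and 11.90 in Responders and between 8.25 and 11.64 in Non-responders. Fibroblast means lay between 7.14 and 12.47 in Responders and between 6.54 and 11.19 in Non-responders, and melanocyte means between 6.64 and 9.92 in Responders and 8.09 and 10.05 in Non-responders. The ranges overlapped for each of these lists.

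Against the T cell mean, the structural mean had r = -0.49 over the 90 arrays (rank correlation -0.43), -0.54 in the larger series (53 arrays) and -0.63 in the smaller (25). Within groups it was -0.38 in Responders, -0.15 in Non-responders and -0.21 in Normal IgG tumours, and without the 2 farthest arrays 0.14 in Non-responders. With the fibroblast mean r was -0.47 over all arrays, -0.88 on the smaller series and -0.40 on the larger. Within groups it was -0.35 in Responders (rank correlation -0.19, and r = -0.10 without the 2 farthest arrays) and -0.04 in Non-responders. In Normal IgG tumours it was -0.56 (rank correlation -0.36, and r = -0.37 without the 2 farthest arrays). Other list means also went with the structural mean. For the 12 regulators of growth r was -0.53 over all arrays, -0.79 on the larger series and 0.10 on the smaller. For the macrophage mean it was -0.45, -0.43 and -0.81. The array median over genes, taken over the probe sets that represent them, also went with the structural mean (r = -0.60 over the 90 arrays). Over all probe sets but the controls, array medians lay between 5.713 and 5.899. Whether the median over genes reflects scaling or the make-up of the RNA was not tested. The beta-actin 3′ minus 5′ difference, a control for RNA integrity and labelling, had r = 0.731 in Non-responders, 0.801 in Normal IgG tumours and -0.04 in Responders, where the rank correlation was 0.247 and r without the 2 farthest arrays 0.473. Its medians were 0.183 in Responders and 0.227 in Non-responders, and with this difference in the model, PBS 5 left out, 31 members were called lower (31.3% of all genes). The part of the other cell types in the ribosomal protein differences was not tested.

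**Figure D5:**
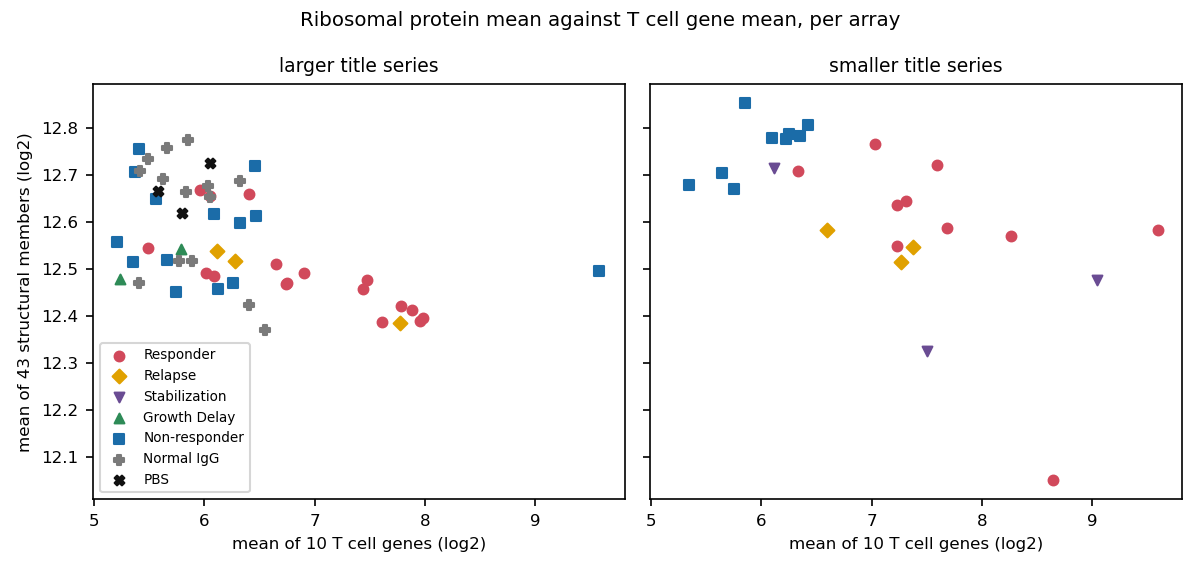
Mean log2 RMA value of the 43 structural genes (vertical axis) against the mean of 10 T cell genes (horizontal axis, log2) on the arrays of the larger (left) and smaller (right) title series, with symbols for the groups. Arrays with more T cell signal lie lower in both panels (r = -0.54 and -0.63), and 1 Responder of the smaller series lies at 12.05.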

How the data were processed

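Total RNA of 90 tumours was measured on 1 Affymetrix array each. Per the submitters' processing notes the authors normalized the arrays with RMA and used limma, without stated versions, and the deposited values are log2. The table holds 45101 probe sets, of which 64 controls were left out. 34945 carried 1 symbol, 932 several and 9160 were not listed, leaving 18193 genes, 9010 of them with a choice of probe set. All 90 columns were matched to samples, and 0 were left unused. There is no read depth for arrays; the precision is limited by the number of arrays.

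All arrays entered limma 3.58.1 (lmFit, eBayes; R 4.3.3) with group and title series as terms, Benjamini-Hochberg adjusted over all genes at 0.05, two-sided. The fits were tested on simulated data. Differences across groups that share few series borrow from the other series, so within-series values are direct differences of means. The labels carry no replicate numbers, so no samples were paired. The members, lists, splits and tests were chosen with earlier results of these data known. Members named are, for Responder against Non-responder, the 8 largest rises and falls called with 1 sign in both series, for other comparisons the 4 largest of each, a set of pairs of paralogues and well-known members, the 3 most and 3 least variable, and the 10 genes most alike; from each other list up to 4 with the smallest p. Correlations over arrays carry no p. Alternatives were another treatment of the title series, scaling, probe set choice, dim genes, control covariates and arrays left out.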

Additional observations from a re-analysis of the deposited data

Results flagged for a closer look

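The mean of the structural genes in Relapse replicate 1 was 12.385, apart from the other 5 Relapse tumours, which lay between 12.514 and 12.583. It stood out as a single low sample in its group, by the gap to its nearest neighbour over the range of the group. In all, 44 combinations of member or mean and group were examined in this way, and chance alone picks out about 1 group in 20. That tumour belongs to the larger series and had the highest T cell list mean of the 6 Relapse tumours, 7.77.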

How the results depend on the processing

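For Responder against Non-responder, the count of members lower stayed within 1.5 times of 31, at 27 to 43, under all alternatives but 3: it was 2 in the larger series alone, 7 in the smaller alone and 17 without arrays rich in muscle or B cell markers, a setting chosen after seeing the data. The 2 higher members became 1 with array centring, in the smaller series alone or without the marker-rich arrays, 0 in the larger series alone, and 0 without dim genes or among structural genes only, which leave out Rps4l and Rps6kc1 by construction. Against Normal IgG the 22 lower members became 36 with centring (34.2% of all genes lower), and the 1 higher became 0 without dim genes or among structural genes only. The Non-responder minus Normal IgG median of -0.0097 reversed to 0.0169 with centring. The 11 lower Relapse members became 1 with the title series left out, 38 with centring (36% of all genes), 2 with quantile normalization, 3 without dim genes, 28 without the 7 low-correlation arrays, 0 in either series alone, 5 without marker-rich arrays, 23 without Responder replicate 21, and 2 with the beta-actin covariate, the last 3 chosen after seeing the data. For quantile normalization and without dim genes no share of all genes is given here, so those Relapse counts cannot be read against it. The 1 higher Relapse member became 2 without the low-correlation arrays. It became 0 in the other settings named except centring and without Responder replicate 21, and also 0 among structural genes only. With centring the median was -0.2447. The 14 lower Stabilization members became 25 with centring (19.7% of all genes), 0 without low-correlation arrays, 3 in the smaller series alone and 26 without Responder replicate 21, and 0 to 30 as each Stabilization array was left out. The 1 higher became 0 without dim genes, without low-correlation arrays or among structural genes only, and 0 to 2 with each array left out. Without low-correlation arrays the median was -0.0148. The difference of Rpl3l between Responders and Non-responders reversed to 0.0694 with quantile normalization and to 0.4967 in the smaller series, and that of Rps6 in Stabilization to 0.0331 without low-correlation arrays. No paired analysis was possible because the labels carry no replicate numbers that groups share. Where no construction is named, the cause was not tested. Groups of 2 and 3 arrays, title series of unknown meaning, 31 symbols not analysed and probe sets near the top of the scale limit what these data show.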

Other observations

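The structural mean also went with the array's own probe sets for 18S rRNA, a component of the small subunit that is not polyadenylated. Over the 90 arrays Pearson's r was 0.495 and the rank correlation 0.47. In Responders r was 0.775, in Non-responders 0.507 and in Normal IgG tumours 0.359. By title series r was 0.243 in the larger (rank correlation 0.282) and 0.663 in the smaller. In the smaller series the rank correlation was only 0.141, and r without the 2 farthest arrays was 0.052. The 18S signal had lowest, median and highest values of 5.85, 9.80 and 11.66 in Responders and 5.64, 9.94 and 11.30 in Non-responders, so the ranges overlapped. These arrays share labelling, scaling and tissue make-up, and no explanation of the relation was tested.

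At the other end from the ribosomal proteins, Map7d1 had the lowest correlation with the structural mean over the 90 arrays after group and title series means were removed (-0.89), followed by Pisd (-0.87) and Fam214b (-0.87). Map7d1, which encodes a microtubule-associated protein, was higher in Responders than in Non-responders by 0.40 (SE 0.10, adjusted p = 0.00191), and Fam214b by 0.28 (adjusted p = 0.0104). Pisd, the mitochondrial enzyme that makes phosphatidylethanolamine, differed by 0.11 and was not called (adjusted p = 0.142).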
